A study of Mus musculus with 132 samples.

Results

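The proximal diaphysis of the mouse tibia was studied after 5 daily sessions of compressive loading. This is the stretch of cortical shaft that lies between the metaphyseal cortex at the knee end and the middle of the bone. The series holds 6 libraries from each of 22 mice. The 10 libraries of this segment and schedule were taken by their titles, which name the segment, the limb and the mouse. They came from 5 loaded tibiae and from the 5 contralateral control tibiae of the same mice, so each mouse gave 1 pair. The mice were female C57Bl/6J aged 10 weeks. Each left tibia was compressed with a peak force of 9 N, 4 times a second (4 Hz), in daily bouts of 1200 cycles on 5 consecutive days, and tissue was taken on day 8, after a pause without loading. The control tibia was not loaded itself but belonged to an animal that had been loaded and handled. The messenger RNA of pulverised cortical bone was sequenced from its 3′ ends, with the cancellous bone removed beforehand.

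Further libraries served for comparison: those of the metaphyseal shell of the same 5 mice (10 libraries), of the mid-diaphysis of the same 5 mice (10 libraries), and of the proximal diaphysis of 4 mice of the same kind that were loaded on 7 consecutive days and studied a day after the last session (8 libraries). The schedules are called 5d and 7d below. The comparison asks which genes differ between the loaded and the control limb of a mouse in this segment, and whether that response differs from that of the other segments and of the longer schedule.

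Cortical bone is laid down by osteoblasts on its outer and inner surfaces, which secrete type I collagen together with the proteins that order and mineralise it. Osteoblasts that become buried in the matrix turn into osteocytes, the cells that sense strain and release sclerostin, the product of Sost and an inhibitor of Wnt signalling and bone formation. Osteoclasts, which derive from the marrow, resorb bone with acid and the protease cathepsin K. Compressive loading of the rodent tibia is a standard way to provoke new bone formation on these surfaces.

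The 10 libraries held 624177 to 2463593 reads on genes (median 1577298), and 12699 to 13880 genes had at least 1 read. Levels below are normalized counts, that is, reads scaled between libraries by the authors, and differences are log2(normalized count + 1) of the loaded minus the control tibia of a mouse. Col1a1, Sparc, Ibsp, Sost, Dmp1 and Mepe, which mark bone cells, were present in every library, and Fgf23, an osteocyte hormone, was at 0 in all 10. Only 4 of 16 markers of cartilage were high enough to test. Markers of marrow were present as well: 16 genes of neutrophils and their precursors summed to 27536 to 53225 in loaded and 16614 to 52474 in control tibiae. The library titles number mice 1 to 3 apart from mice 4 and 5, and the ribosomal RNA precursor Rn45s differed largely along the same line. It took 23.8% to 44.03% of the reads of mice 1 to 3 in loaded and 7.598% to 39.3% in control tibiae, and in mice 4 and 5 it took 0.749% and 6.01% in loaded and 4.33% and 5.13% in control tibiae.

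Markers of skeletal muscle differed between the limbs more than any other list. The 20 genes of the list summed to 12480, 643, 2028, 815 and 448 in the loaded tibiae of mice 1 to 5, against 8895, 8928, 17679, 7396 and 14287 in their control tibiae. The loaded side was therefore lower in mice 2 to 5 and higher in mouse 1. Tnnc2, the calcium-binding subunit of troponin in fast muscle, was at 1179, 86.2, 70.7, 89.6 and 22.2 in loaded and 1442, 1109, 2755, 777 and 1582 in control tibiae. All 19 tested members had a log2 difference below 0, with a median of -3.03, and 4 were lower in all 5 mice, against 2.84% of all genes. None passed the limma test described next, while DESeq2 called 17 of them, against 0.583% of all genes. On simulated data DESeq2 made 53 false calls and limma 1. In a bulk sample, fewer cells of a type cannot be told apart from less RNA per cell. None of the 20 genes was at 0 in all 10 libraries.

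Across the 9605 genes tested, none passed an adjusted p of 0.05 in the 5 pairs (limma, two-sided, adjusted by Benjamini-Hochberg), so 0% was called. On data simulated for this comparison limma recovered 21 of 100 genes changed 4-fold and 1 of 100 changed 2-fold. The spread in those data came from the control tibiae of 5d and 7d together, and their mice had no level of their own. Recovery in the real data could differ. A count of 0 therefore does not show that few genes respond. At an unadjusted p under 0.05 there were 252 genes (2.62%), of which 203 were lower in loaded tibiae (2.11%) and 49 higher (0.510%). Without mouse 2 this count was 415, and without 2 mice of other schedules whose control libraries held few genes (mouse 3 at 3 h and mouse 2 at 7d) it was 477. The quasi-likelihood test of edgeR also called 0 genes and had 224 at an unadjusted p under 0.05. The median difference of all genes was 0.05. The 5 loaded and 5 control values did not overlap for 49 genes lower (0.510%) and 20 higher (0.208%) in loaded tibiae. In all 5 mice, 273 genes were lower in the loaded tibia (2.84%) and 172 higher (1.79%). The values that follow describe the direction and size of differences that did not pass the test, except where a call is stated.

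The smallest p values belonged to 3 genes that were lower in the loaded tibia of all 5 mice. Cgref1 (chromosome 5, 30933143 to 30945591, minus strand), a secreted protein with calcium-binding EF hands, was at 69.2, 125.2, 41.7, 92.999 and 63.4 in the loaded tibiae of mice 1 to 5, against 218, 239, 205, 252 and 242 in their control tibiae. The control tibiae lay close together and every loaded tibia lay below them, so the groups did not overlap. The means were 78.5 ± 31.8 in loaded and 231 ± 19.2 in control tibiae (SD, n = 5 each), a log2 difference of -1.64 ± 0.30 (SE, 95% interval -2.25 to -1.02, limma adjusted p = 0.106). The mean difference was -1.61 in mice 1 to 3 and -1.67 in mice 4 and 5, and it was -1.64 in mouse 1, whose muscle list had a median of 0.49.

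Slc13a5 (chromosome 11, 72241989 to 72267222, minus strand), the sodium-coupled citrate transporter of the plasma membrane, was at 72.2, 168, 38.1, 32.7 and 116.3 in loaded tibiae and 1027, 214, 165, 418 and 232 in control tibiae. The difference was wide in mice 1 and 4 and narrow in mouse 2, and the groups overlapped by a small margin. It averaged -2.17 ± 0.42 on the log2 scale (95% interval -3.05 to -1.30, limma adjusted p = 0.106). Tmem119 (chromosome 5, 113793729 to 113800516, minus strand), a membrane protein that promotes osteoblast differentiation in mice, was at 117.4, 172, 96.1, 91.3 and 102.6 in loaded and 335, 294, 201.9, 479 and 598 in control tibiae. Every loaded value was below every control value. The difference was -1.65 ± 0.33 (95% interval -2.32 to -0.97, limma adjusted p = 0.106), with -1.11 in mice 1 to 3 and -2.46 in mice 4 and 5.

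**Figure D1:**
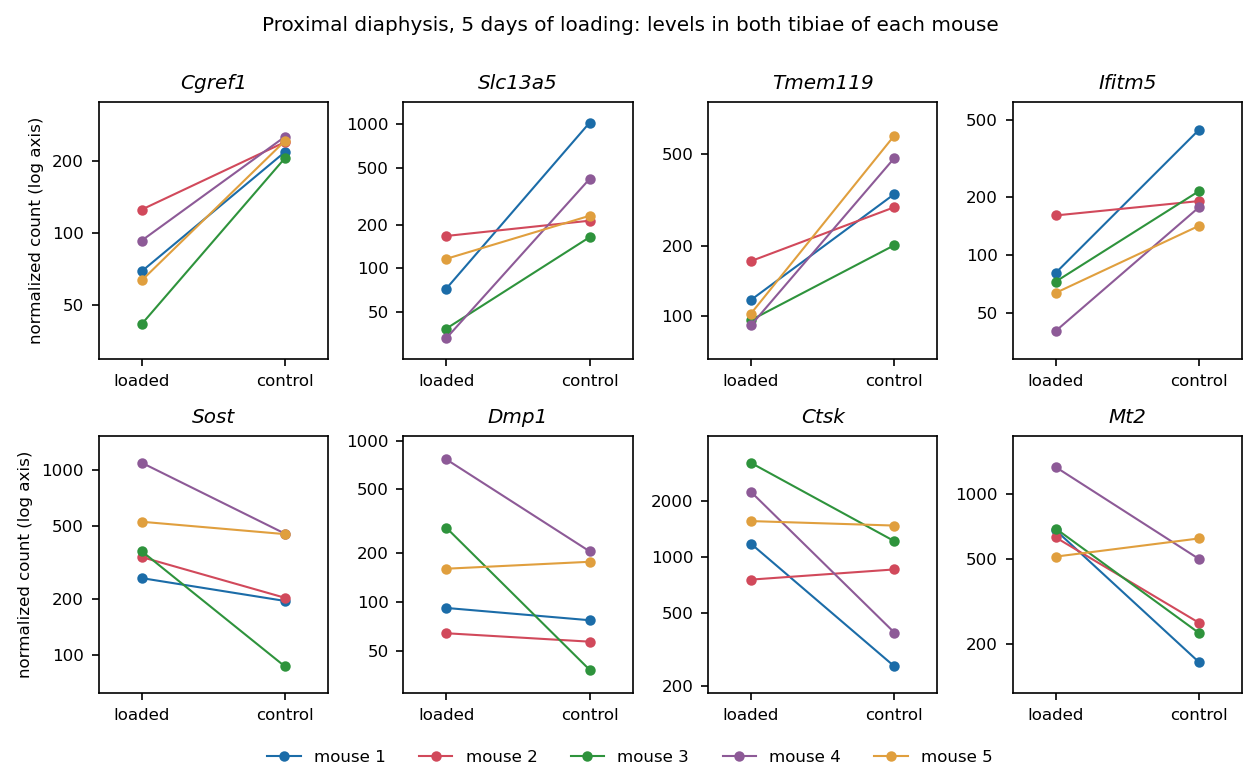
Normalized counts of 8 genes (log axis, a separate scale for each gene) in the loaded (left) and control (right) tibia of each of the 5 mice, with a line joining the limbs of a mouse. Cgref1, Slc13a5, Tmem119 and Ifitm5 lie lower on the loaded side in 5 of 5 mice, Sost lies higher in 5 of 5, and Dmp1, Ctsk and Mt2 lie higher in 4 of 5.

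Among genes with the same sign in all 5 mice, those next in p on the lower side encode proteins of the matrix, of membranes and of metabolism. Ifitm5, a small membrane protein nearly restricted to mineralising osteoblasts, was at 80.5, 160.0, 72.6, 40.2 and 63.4 in loaded and 445, 190.0, 214, 176 and 141 in control tibiae, a difference of -1.50 ± 0.34. Its control value in mouse 1 stood apart from the other 4. Sgms2, a sphingomyelin synthase mutated in a human disorder of bone fragility, was at 376, 445, 308, 342 and 392 in loaded and 662, 615, 726, 804 and 1125 in control tibiae. All loaded values were below all control values, and the difference was -1.05 ± 0.29. Crispld2, a secreted glycoprotein, differed by -1.15 ± 0.27, with nearly the same value in each mouse (-0.95, -1.16, -1.13, -1.20 and -1.29). The differences were -1.21 ± 0.31 for the proprotein convertase Pcsk6, -1.18 ± 0.30 for the cysteine dioxygenase Cdo1, -1.39 ± 0.37 for fibrillin-2 (Fbn2) and -1.31 ± 0.36 for type XV collagen (Col15a1).

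The list of 20 osteoblast genes had 17 members below 0 and 3 above, with a median of -0.66, against 44.6% of all genes below 0. None passed the test. At an unadjusted p under 0.05, 6 were lower and 1, Mmp13, was higher, against 2.11% and 0.510% of all genes. The median of the list was -1.09, -0.10, -0.09, -1.17 and -1.09 in mice 1 to 5, so it was clear in mice 1, 4 and 5 and near 0 in mice 2 and 3. Sparc (osteonectin, a collagen-binding protein) was at 22096, 44688, 7907, 15161 and 29368 in loaded and 110962, 36735, 16445, 61790.1 and 44309 in control tibiae. It was lower on the loaded side in 4 mice and higher in mouse 2, and the difference was -1.14 ± 0.43. Smpd3, a sphingomyelinase needed for mineralisation in mice, differed by -1.64 ± 0.43, although the mice were far apart, at -2.26, -0.33, 0.03, -4.44 and -1.19 for mice 1 to 5. Serpinf1, an antiangiogenic secreted protein whose loss causes brittle bone in humans, differed by -0.96 ± 0.35.

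Bglap, the gene of osteocalcin, was at 1464, 3109, 453, 1383 and 561 in loaded and 2796, 2784, 979, 2037 and 4704 in control tibiae, a difference of -1.10 ± 0.58. Mouse 5 had the widest gap, and mouse 2 was slightly higher on the loaded side. Bglap2, a near-identical copy whose reads could be shared with it, differed by -1.03 ± 0.89, so neither value is certain for 1 gene alone. Alkaline phosphatase (Alpl) differed by -0.50 ± 0.35, bone sialoprotein (Ibsp) by -0.38 ± 0.36 and the transcription factor Runx2 by -0.28 ± 0.33. The 95% intervals of these 3 genes were -1.23 to 0.23, -1.13 to 0.36 and -0.96 to 0.40, and each included 0. Leaving out mouse 4 turned the sign of Runx2, to 0.0316. Osteopontin (Spp1), which osteoclasts and osteocytes make as well, had the opposite sign, with 0.82 ± 0.44.

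Genes for the collagen matrix had mostly negative differences. Of 35 tested members of the list of fibrillar and other collagens with their processing and crosslinking enzymes, 32 had a log2 difference below 0, and the median was -0.71. None passed the limma test, although DESeq2 called Pcolce, and 14 were lower and 0 higher at an unadjusted p under 0.05, against 2.11% and 0.510% of all genes, and 9 were lower in all 5 mice, against 2.84%. The median was below 0 in each mouse, with -0.94, -0.41, -0.25, -1.16 and -1.06 in mice 1 to 5. Col1a1, which encodes the alpha-1 chain of type I collagen, was at 22515, 52143, 12583, 23271 and 26528 in loaded and 91524, 44613, 29645, 60937 and 83540.2 in control tibiae. The loaded tibia was lower in 4 mice and higher in mouse 2, and the difference was -1.22 ± 0.48. Col1a2, its partner chain, differed by -0.71 ± 0.46.

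Among the less abundant collagens, Col22a1, a collagen of tissue junctions, was at 257, 280.3, 121.5, 259 and 210.4 in loaded and 592, 431, 308, 510.4 and 505 in control tibiae. The groups did not overlap, and the difference of -1.08 ± 0.32 was -1.05 in mice 1 to 3 and -1.12 in mice 4 and 5. Of the processing enzymes, Pcolce, which speeds the cleavage of the procollagen C-propeptide, was at 197, 286, 79.8, 118.1 and 106.8 in loaded and 566, 353, 333, 254 and 367 in control tibiae. It was lower in all 5 mice, with a difference of -1.35 ± 0.41. Bmp1, the protease that it assists, differed by -0.76 ± 0.34, and Loxl2, a lysyl oxidase that crosslinks collagen, by -1.63 ± 0.48.

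The small leucine-rich proteoglycans, which coat and space collagen fibrils, showed the same sign throughout. All 9 tested members were below 0, with a median of -0.998. At an unadjusted p under 0.05, 5 were lower, against 2.11% of all genes, and 4 were lower in all 5 mice, against 2.84%. Lumican (Lum) was at 297, 482, 225, 167 and 221 in loaded and 498, 852, 345, 412 and 768 in control tibiae, a difference of -1.05 ± 0.34. Decorin (Dcn) was at 1324, 1285, 727, 589.8 and 878 in loaded and 2143, 2307, 975, 1691 and 2509.6 in control tibiae, a difference of -0.998 ± 0.33. Both were lower in the loaded tibia of every mouse, with overlap between mice. Fibromodulin (Fmod) differed by -1.78 ± 0.66, biglycan (Bgn) by -0.80 ± 0.34 and asporin (Aspn) by -1.32 ± 0.60. In mouse 1, whose muscle list had a median of 0.49, the median of the proteoglycans was -0.69 and that of the collagens -0.94. The part of muscle in these values was not tested.

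**Figure D2:**
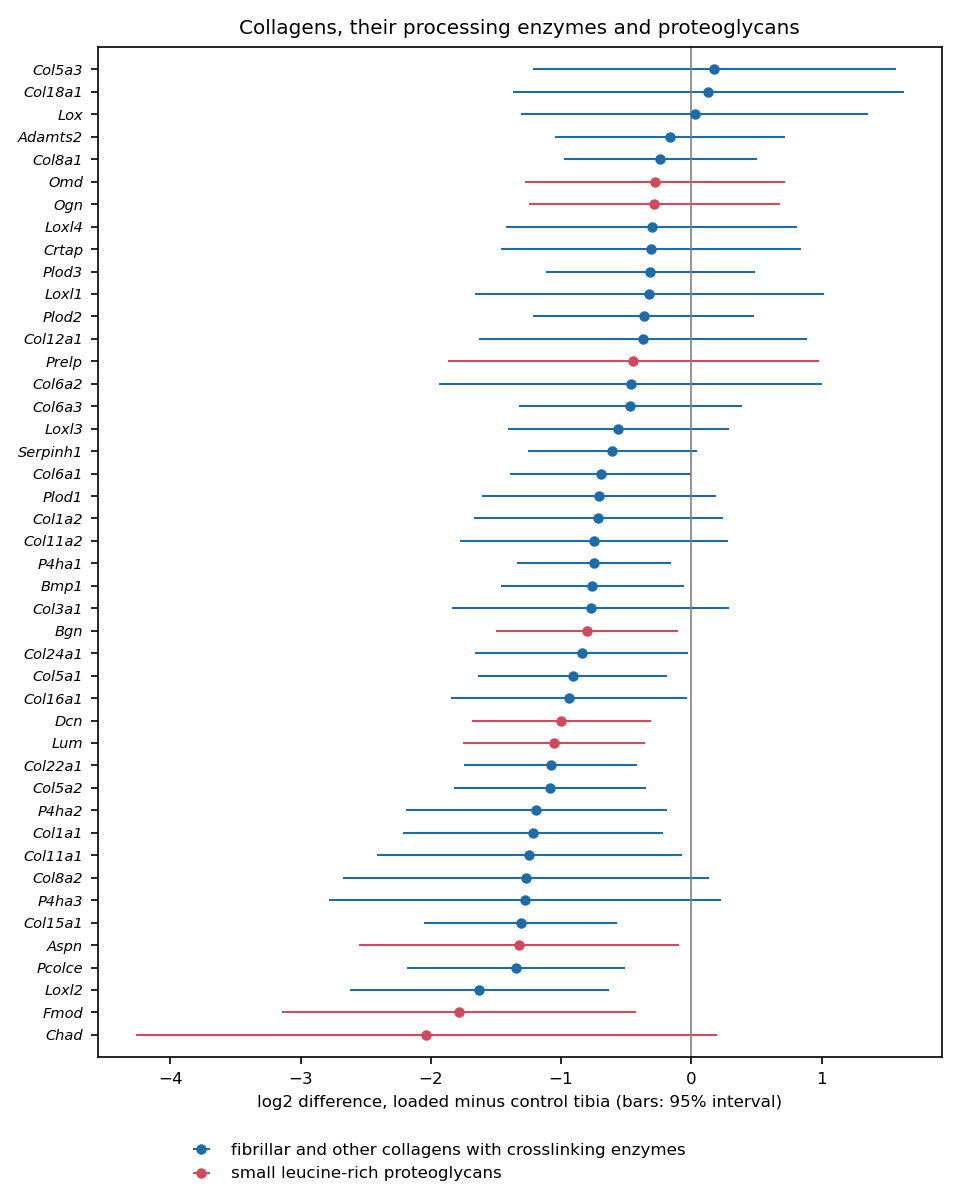
Log2 difference (loaded minus control, x axis) with its 95% interval for each tested gene of the collagen list (blue, 35 genes) and of the proteoglycan list (red, 9 genes), sorted by the difference. Below 0 lie 32 of the 35 collagen genes and all 9 proteoglycans, and none passed an adjusted p of 0.05 in limma.

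Proteins of the secretory pathway, through which collagen leaves the cell, differed little as a list. Of 36 tested members, 22 were below 0 with a median of -0.18, and 3 were lower at an unadjusted p under 0.05, against 2.11% of all genes. Creb3l1, a transcription factor of the endoplasmic reticulum that drives collagen secretion, differed by -0.94 ± 0.31 and was lower in all 5 mice. Ssr4, a subunit of the translocon-associated complex, differed by -0.70 ± 0.25, and Fkbp10, a collagen chaperone, by -1.01 ± 0.38. Mmp2, a gelatinase, was at 212, 439, 68.9, 193 and 118.4 in loaded and 634, 448, 274, 248 and 417 in control tibiae. It was lower in all 5 mice, although by little in mouse 2, and the difference was -1.15 ± 0.33.

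Genes of periosteum, tendon and fibrous tissue were lower on average, with more spread. Of 16 tested members 12 were below 0, with a median of -0.38. At an unadjusted p under 0.05, 5 were lower and 1 higher, against 2.11% and 0.510% of all genes. The higher gene was Ctsk, which is on the osteoclast list as well. Tnn (tenascin-W), a matrix protein of periosteum and of osteoblast precursors, was at 33.1, 240.0, 38.1, 15.9 and 52.9 in loaded and 174, 268, 55.2, 193 and 376 in control tibiae. It was lower in all 5 mice, with small differences in mice 2 and 3 and large ones in mice 1, 4 and 5, and averaged -1.87 ± 0.61. Lrrc15, a membrane protein of fibroblasts, differed by -1.89 ± 0.66, and periostin (Postn), a matrix protein of the periosteum, by -0.38 ± 0.43. Thbs4, a tendon matrix protein, differed by -2.43 ± 1.20 at mean levels of only 7.01 in loaded and 33.5 in control tibiae. The muscle list had medians between -5.33 and -3.19 in mice 2 to 5 and of 0.49 in mouse 1. In mouse 1 Tnn differed by -2.36 and Lrrc15 by -2.16, while Thbs4 was higher on the loaded side, by 1.63. The part of muscle or other adhering tissue in these values was not tested.

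Members of the Wnt pathway that could be measured had a negative median that varied between mice. Of 28 genes of the list of Wnt ligands and canonical targets, 9 were high enough to test. Of these 6 were below 0 and 3 above, with a median of -0.67, against 44.6% of all genes below 0. At an unadjusted p under 0.05, 3 were lower, against 2.11% of all genes. The median was -0.65, -0.14, 0.10, -0.99 and -1.06 in mice 1 to 5, and -0.27 when mouse 5 was left out. The tested genes named next were among those below 0. Wnt4, a ligand, was at 18.8, 50.1, 21.8, 17.6 and 27.5 in loaded and 59.9, 70.9, 70.8, 27.3 and 57.1 in control tibiae. It was lower in all 5 mice, with a difference of -1.08 ± 0.37. Wisp1, a secreted matricellular protein induced by Wnt signalling, was at 639, 913, 339, 465 and 679.9 in loaded and 944, 1294, 657, 1126 and 1416 in control tibiae. It too was lower in all 5 mice, with a difference of -0.87 ± 0.34. Wnt16, a ligand that preserves cortical bone in mice, differed by -1.67 ± 0.75 at mean levels of 5.81 in loaded and 24.2 in control tibiae, and Wnt5b by -1.07 ± 0.62. Wnt1, Wnt7b, Wnt10b, Axin2 and Lef1 were too low to test, with values of at most 25.2 in any of the 10 libraries.

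The secreted antagonists of the pathway had both signs, and 4 of 7 tested members were above 0, with a median of 0.04. Dkk3 differed by -1.15 ± 0.53, Frzb by -1.36 ± 0.69 and Dkk1 by 0.52 ± 0.41. The axon-guidance gene Sema3b, a secreted semaphorin, was at 29.3, 85.6, 14.5, 16.8 and 43.4 in loaded and 207, 77.7, 75.4, 132.3 and 144 in control tibiae. It was lower in 4 mice and nearly level in mouse 2, and differed by -1.91 ± 0.42 (limma adjusted p = 0.264). Its relative Sema3d differed by -1.45 ± 0.47, and the shared receptor Nrp2 by -0.56 ± 0.29.

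Sost was higher in the loaded tibia of all 5 mice. It was at 260.4, 339, 365, 1101 and 527 in loaded and 196, 204, 86.3, 454 and 451 in control tibiae. The gap was wide in mice 3 and 4 and small in mouse 5, and the groups overlapped. The difference was 0.94 ± 0.38 (95% interval 0.17 to 1.72) and did not pass the test. Dmp1, a mineral-binding matrix protein of osteocytes, was at 91.8, 63.99, 288, 765 and 161 in loaded and 77.1, 56.8, 37.97, 206 and 177 in control tibiae. Only mice 3 and 4 showed a large difference, and it averaged 1.01 ± 0.50. Mepe and Phex, 2 other osteocyte genes of mineral balance, differed by 0.09 ± 0.44 and 0.06 ± 0.37. Slc8a3, a sodium-calcium exchanger, and podoplanin (Pdpn), a marker of young osteocytes, had the opposite sign, with -1.33 ± 0.57 and -0.99 ± 0.44. The list of osteocyte genes had 7 of 14 tested members above 0 and a median of -0.03.

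Osteoclast genes had small positive differences throughout. All 15 tested members of the list were above 0, against 55.4% of all genes, with a median of 0.47. None passed the test. At an unadjusted p under 0.05 there were 3 higher, against 0.510% of all genes, and 3 were higher in all 5 mice, against 1.79%. The median was above 0 in every mouse, with 0.87, 0.16, 0.70, 0.97 and 0.13 in mice 1 to 5. Ctsk, the gene of cathepsin K, was at 1177, 754, 3212, 2240.4 and 1559.5 in loaded and 257, 856, 1215, 391 and 1475 in control tibiae. It was clearly higher in mice 1, 3 and 4 and nearly level in mice 2 and 5, and the difference was 1.20 ± 0.42. Atp6v1b2, a subunit of the proton pump that acidifies the resorption pit, was at 680.3, 522, 571, 627 and 479 in loaded and 161, 462, 439, 321 and 454 in control tibiae. The loaded and control values did not overlap, and the difference was 0.73 ± 0.31.

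Other named genes of the proton pump or of bone resorption had the same sign, but Atp6v1c1, Snx10 and Mmp13 are not on the osteoclast list. Atp6v1c1 and Snx10 are named for their p among genes higher in all 5 mice. Atp6v0d2 differed by 0.90 ± 0.38, Atp6v1c1 by 0.68 ± 0.27 with a higher value in all 5 mice, and the integrin subunit Itgb3 by 0.47 ± 0.25. Tartrate-resistant acid phosphatase (Acp5) averaged 3269 in loaded and 2637 in control tibiae (n = 5 each) and differed by 0.27 ± 0.32. Snx10, a sorting nexin that osteoclasts need for resorption, was at 185, 166, 383, 122.3 and 112.1 in loaded and 73.4, 102.4, 155, 67.2 and 105.3 in control tibiae. It was higher in all 5 mice, with a difference of 0.85 ± 0.32. The collagenase Mmp13, made by osteoblasts and hypertrophic chondrocytes, was at 1338, 913, 2759, 1558 and 1301 in loaded and 649, 1017, 843, 825 and 1286 in control tibiae and differed by 0.71 ± 0.33. It is on the osteoblast list, of which 17 of 20 members were below 0.

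The lists of erythroid cells, B cells, neutrophils and macrophages had positive medians as well. All 10 tested erythroid genes and all 10 tested genes of B cells and plasma cells were above 0, with medians of 0.45 and 0.48. Of the neutrophil genes 14 of 16 were above 0 with a median of 0.28, and of the macrophage genes 6 of 10 with a median of 0.33. In mouse 3 the medians of the neutrophil, B cell and macrophage lists were -0.56, -1.18 and -0.47, while those of the erythroid and osteoclast lists were 0.50 and 0.70. The macrophage list summed to 2549 to 3884 in loaded and 1780.4 to 3159 in control tibiae, the erythroid list to 1831 to 3011 in loaded and 1018 to 2629 in control tibiae, and 2 of its 12 genes in the table were at 0 in all 10 libraries. The part of marrow in the osteoclast values was not tested. Lyz2, the lysozyme of macrophages and granulocytes, differed by 1.05 ± 0.45, and Cd68, a lysosomal protein of macrophages and osteoclasts, by 1.51 ± 0.70. Csf1, the cytokine that supports both lineages, differed by 0.82 ± 0.43.

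The 10 genes with the smallest p among those higher in all 5 mice came from several cell types. Efhd2, a calcium-binding regulator of actin, was at 88.05, 93.9, 189, 253 and 156 in loaded and 63.6, 86.98, 73.1, 75.6 and 76.7 in control tibiae. The groups did not overlap, and the difference was 0.94 ± 0.33. Tal1, a transcription factor of blood-forming cells, was at 105.4, 78.6, 97.95, 101.4 and 116.3 in loaded and 34.2, 46.9, 71.9, 58.8 and 46.6 in control tibiae. Here too the groups did not overlap, and the difference was 0.97 ± 0.39. The adaptor Skap2 differed by 0.76 ± 0.29, the semaphorin receptor Plxnd1 by 0.99 ± 0.38, the glycolipid transfer protein Gltp by 1.25 ± 0.48, the lectin-type receptor ligand Clec2d by 1.53 ± 0.59 and the DNA repair ATPase Fignl1 by 1.59 ± 0.66. Snx10, Atp6v1c1 and Sost complete the 10 genes of this kind, and the limma adjusted p of each named here was 0.9998.

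The metallothioneins Mt1 and Mt2, which bind zinc and respond to glucocorticoids and metals, were both higher in mice 1 to 4. Mt2 was at 679, 628, 691, 1339.7 and 511 in loaded and 164, 250.4, 224, 498 and 621 in control tibiae. The loaded tibia was well above the control in 4 mice and slightly below it in mouse 5. The difference was 1.23 ± 0.33 for Mt2 (limma adjusted p = 0.828) and 0.96 ± 0.33 for Mt1. Igfbp4, a binding protein of insulin-like growth factors, differed by 0.73 ± 0.32, mainly through mouse 4. Of 34 tested genes of the cell cycle, 33 were above 0 with a median of 0.43, and none had an unadjusted p under 0.05. The proliferation marker Mki67 differed by 0.56 ± 0.49, and Bub1, a kinase of the mitotic checkpoint, by 1.27 ± 0.70.

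Most other lists lay nearer to 0. Of 23 genes of bone morphogenetic protein and TGF-beta signalling 17 were below 0 with a median of -0.10, and of 13 metalloproteinases and their inhibitors 8 with a median of -0.10. Of 10 genes of the insulin-like growth factor system 7 were above 0 with a median of 0.27, of 12 targets of the mechanosensitive cofactors YAP and TAZ 8 with a median of 0.21, and of 13 immediate early genes 8 with a median of 0.26. None of the targets of YAP and TAZ or of the immediate early genes had an unadjusted p under 0.05. The interferon response had 11 of 13 genes above 0 and a median of 0.34, glycolysis and hypoxia a median of -0.15, axon guidance -0.56, cartilage -0.74 over 4 genes, RANKL and CSF1 signalling 0.32 over 4 genes, endothelium 0.27, megakaryocytes 0.17 and marrow adipocytes -0.24. Ribosomal proteins had a median of 0.17 that ranged over mice from -0.64 to 1.31, and oxidative phosphorylation 0.02 with a range of -0.76 to 1.26.

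**Figure D3:**
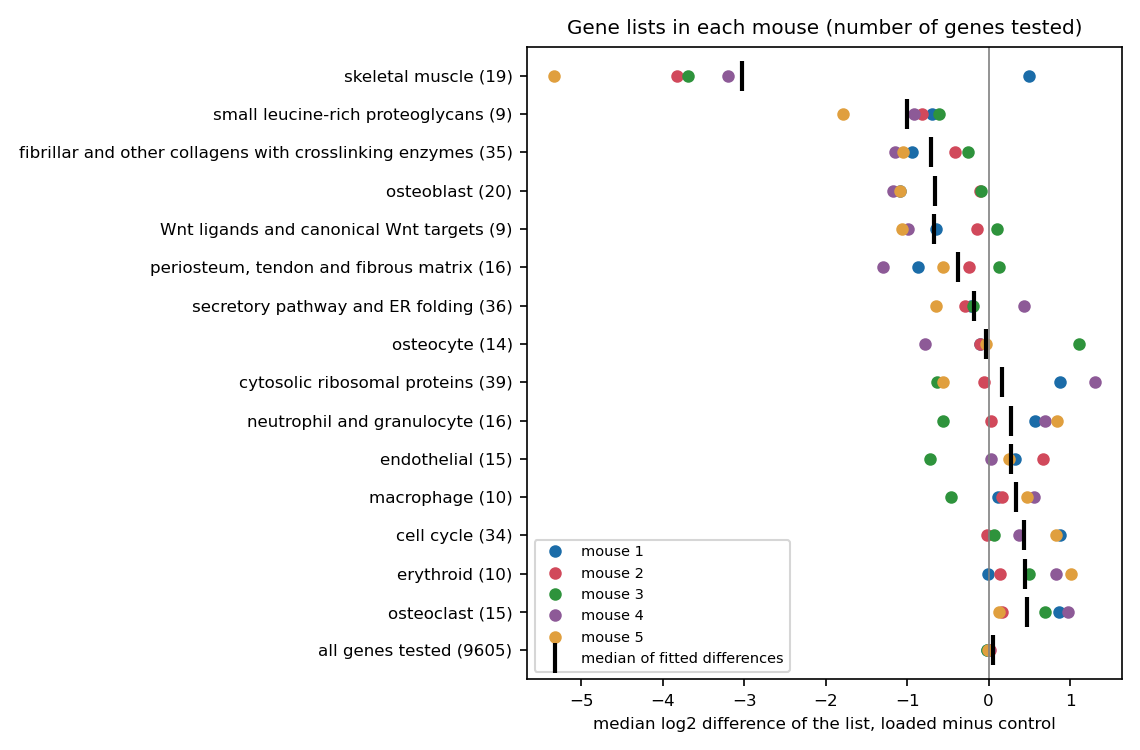
Median log2 difference (x axis, loaded minus control) over the tested genes of each list in each of the 5 mice (coloured points), with the median of the fitted differences as a black bar and the number of genes tested in brackets. The proteoglycan, collagen and osteoblast medians lie below 0 in 5 of 5 mice, the osteoclast medians above 0 in 5 of 5, and the muscle medians lie between -5.33 and -3.19 in mice 2 to 5 and at 0.49 in mouse 1.

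Of the other methods, DESeq2, fitted to the 10 libraries alone, called 56 genes, all lower in loaded tibiae (0.583% of the 9605), and array weights in limma, which count noisy mice less, called 10 (0.104%), all lower as well. Of the 56 genes 17 belong to the muscle list, and others outside it, such as Pgam2, Tcap, Myom2 and Ryr1, are known from muscle too. Cgref1, Slc13a5 and Tmem119 were among them, with DESeq2 adjusted p of 0.00416, 0.00416 and 0.00501, as were Ifitm5, Fmod, Lrrc15, Sema3b, Tnn, Cilp2, Thbs4 and Pcolce. The 10 genes of the weighted fit were Cgref1, Tmem119, Loxl2, Fxyd6, Crispld2, Cdo1, Col5a2, Pcsk6, Lum and Sgms2, and none is on the muscle list. The weights of mice 1 to 5 were 0.787, 1.463, 0.615, 0.460 and 2.365. Mouse 5, with a muscle median of -5.33, therefore counted most. In the weighted fit the muscle list had a median of -3.84. This fit was not run on simulated data. Without mouse 2 the unweighted limma fit called Slc13a5, Sema3b and Cgref1, all lower. On data simulated for this comparison DESeq2 made many more false calls than limma or edgeR, so its calls are a description and support nothing here. The part of muscle in the calls outside the muscle list was not tested. In mouse 1, whose muscle list had a median of 0.49 with 4 of 19 genes lower, Slc13a5 differed by -3.81, Tmem119 by -1.51, Sema3b by -2.77, Lum by -0.74 and Sgms2 by -0.81.

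The response of the proximal diaphysis differed from that of the metaphyseal shell of the same mice in 4 genes (0.0416% of 9605), all more negative in the proximal diaphysis. They were Crispld2, Col16a1, Cilp2 and Tnn, all genes of secreted proteins. At an unadjusted p under 0.05 there were 184 genes (1.92%), 145 lower (1.51%) and 39 higher (0.406%) in the proximal response. On data simulated for this comparison limma recovered 1 of 100 genes changed 4-fold and 0 of 100 changed 2-fold. Many differences of that size could therefore be missed. In the shell alone 1 gene was called between the limbs (0.0104%), Meg3, a long non-coding RNA, at 1.77. Crispld2 (chromosome 8, 119992438 to 120052793, plus strand) overlaps a gene model on its own strand, so its reads cannot be separated from it. In the proximal diaphysis it was at 84.3, 138, 50.8, 56.97 and 103.6 in loaded and 164, 309.7, 112.2, 132.3 and 254 in control tibiae, and in the shell at 320.3, 451, 266, 139.5 and 107.02 in loaded and 102.1, 138, 139, 86.4 and 157 in control tibiae. The loaded limb was lower in 5 of 5 mice in the proximal diaphysis and higher in 4 of 5 in the shell. The responses were -1.15 ± 0.27 and 0.88 ± 0.27, and they differed by -2.03 ± 0.36 (limma adjusted p = 0.0433).

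Col16a1 (chromosome 4, 130047840 to 130099283, plus strand), a minor collagen of fibril surfaces, was at 327, 757, 159.6, 63.7 and 216 in loaded and 449, 640.3, 219, 452 and 505 in control tibiae of the proximal diaphysis. In the shell it was at 1706, 2839.6, 1340.0, 512 and 692 in loaded and 699.6, 773, 161, 460.4 and 450.3 in control tibiae. All 5 mice had a higher value on the loaded side in the shell, and 4 of 5 a lower one in the proximal diaphysis. The responses differed by -2.34 ± 0.44 (limma adjusted p = 0.0433). Cilp2 (chromosome 8, 69880369 to 69887687, minus strand), a cartilage and tendon matrix protein, was at 39.1, 144, 7.26, 10.1 and 66.6 in loaded and 135, 189, 78.8, 258 and 112.8 in control tibiae of the proximal diaphysis, and at 402, 873, 187, 108.97 and 164 in loaded and 107.9, 100.3, 31.2, 95.8 and 107.7 in control tibiae of the shell. The signs were opposite in all 5 mice, and the responses differed by -3.81 ± 0.72 (limma adjusted p = 0.0433).

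Tnn (chromosome 1, 160085029 to 160153580, minus strand), whose proximal values are given above, was at 294, 408, 425, 118.4 and 180.1 in loaded and 112.2, 197, 19.4, 114.7 and 173 in control tibiae of the shell. The loaded shell was clearly higher in mice 1 to 3 and level in mice 4 and 5. Its responses differed by -3.26 ± 0.63 (limma adjusted p = 0.0464). For each of the 4 genes the proximal response was below that of the shell in 5 of 5 mice. In mice 1 to 3 the difference averaged -2.50 for Crispld2, -2.29 for Col16a1, -4.32 for Cilp2 and -3.28 for Tnn. In mice 4 and 5 it averaged -1.31, -2.40, -3.05 and -3.22 for the same genes.

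These 4 calls were not stable. No gene was called with a pseudocount of 0.5, without the filter on low values, with another scaling, without mouse 1, 2, 3 or 4, or without the pairing of limbs. Without mouse 5 Crispld2 and Cilp2 were called, and edgeR called Crispld2 alone. The muscle list was also lower proximally, with a median of -3.03 in the proximal diaphysis and -0.58 in the shell, and its part in the 4 genes was not tested. In mouse 1, whose muscle median was 0.49 in the proximal diaphysis, the responses there were -0.95 for Crispld2, -0.45 for Col16a1, -1.76 for Cilp2 and -2.36 for Tnn. The list of periosteum, tendon and fibrous matrix had a median of -0.38 in the proximal diaphysis and 1.22 in the shell, and the proteoglycans -0.998 and 0.53. Thbs4, for which the test was not passed, had -2.43 ± 1.20 in the proximal diaphysis and 2.48 ± 0.82 in the shell, and Aspn -1.32 ± 0.60 and 1.67 ± 0.56.

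**Figure D4:**
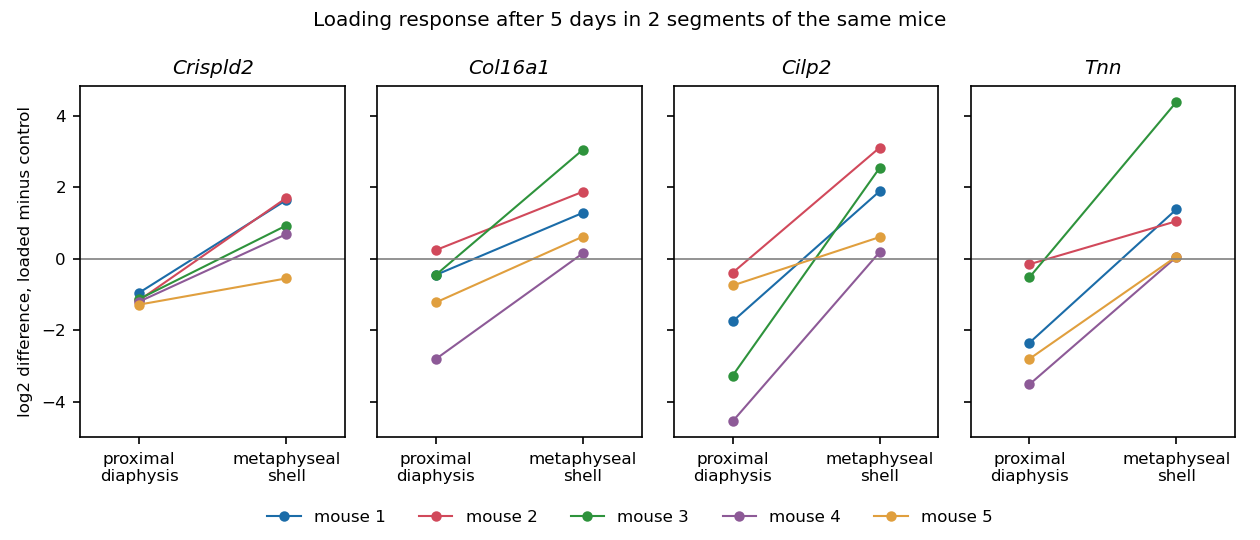
Log2 difference (loaded minus control tibia, y axis) of 4 genes in the proximal diaphysis (left) and the metaphyseal shell (right) of each of the 5 mice, with a line joining the segments of a mouse. In all 4 genes the proximal value lies below the shell value in 5 of 5 mice.

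Against the mid-diaphysis of the same mice no gene differed in its response (0 of 9605, limma). At an unadjusted p under 0.05 there were 488 genes (5.08%), of which 276 were higher (2.87%) and 212 lower (2.21%) in the proximal response. Recovery was not simulated for this comparison, so a count of 0 does not show that the segments respond alike. In the mid-diaphysis mice 4 and 5 stood apart, with osteoblast medians of -2.66 and -2.96 against -0.44, 0.45 and 0.52 in mice 1 to 3. Their loaded libraries there held mesothelial-type markers at a summed level of 2167 and 2278, against 23.2 to 84.2 in the other 8 libraries, and neutrophil markers at 1889 and 2476, against 24878 to 59176. The part of other tissue in the values of mice 4 and 5 was not tested. Without both mice 0 genes were called and 146 had an unadjusted p under 0.05. That fit still held mid-diaphysis libraries of 1 h with mesothelial-type markers at 2540 (mouse 2, loaded) and 2324 (mouse 3, control). The difference of Cgref1 was -1.64 proximally, while the mid-diaphysis had -2.02 over 5 mice and 0.06 over mice 1 to 3. Slc13a5 differed by -2.17 proximally, and by -1.72 over 5 and 0.57 over 3 mice in the mid-diaphysis. The collagen list had a median of -0.71 proximally, while the mid-diaphysis had -0.66 over 5 mice and -0.21 over mice 1 to 3.

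Between the 5d and the 7d schedule no gene of the proximal diaphysis differed in its response (0 of 9605, limma), and 759 genes (7.90%) were at an unadjusted p under 0.05, with 1.13% of genes higher and 6.77% lower at 5d. Without mouse 2 of the 7d group, whose control library held few genes, the count was 247, and the median difference of all genes between the schedules was -0.02 in place of -0.28. On data simulated for this comparison the test recovered none of the changed genes, so a count of 0 does not show that the schedules act alike. The collagen list had a median of -0.71 at 5d and -0.82 at 7d, and the proteoglycans -0.998 and -0.92. At 7d the proteoglycan medians of mice 1 to 4 were -0.11, -2.003, -1.36 and -0.05, beside muscle medians of -0.42, -4.36, -6.77 and 4.29, and the part of muscle was not tested. The median of all genes was 0.05 at 5d and 0.29 at 7d, and the schedules share no library. Cgref1 differed by -1.64 ± 0.30 at 5d and -0.77 ± 0.34 at 7d, Tmem119 by -1.65 ± 0.33 and -1.16 ± 0.37, and Col1a1 by -1.22 ± 0.48 and -1.60 ± 0.54. Ctsk differed by 1.20 ± 0.42 at 5d and -0.20 ± 0.47 at 7d, Mmp13 by 0.71 ± 0.33 and -0.60 ± 0.37, and Sost by 0.94 ± 0.38 and 0.20 ± 0.42. None of these pairs passed the test of the difference between schedules.

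After a single session the same lists had other values, which are given side by side. The collagen list had a median of -0.67 at 1 h, -0.01 at 3 h and 0.28 at 24 h, and -0.71 at 5d. The value at 1 h rested on 1 mouse at -2.79 while the other 4 lay between -0.33 and -0.03. The osteoclast list had medians of -0.43 at 1 h, -0.06 at 3 h, -0.80 at 24 h and 0.47 at 5d. At 24 h it was below 0 in 4 of 4 mice and at 5d above 0 in 5 of 5. Cgref1 differed by -0.96 at 1 h, -0.04 at 3 h and 0.72 at 24 h. At the same times Ctsk differed by -0.93, -0.37 and -1.38. No difference between 5d and these times was tested.

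**Figure D5:**
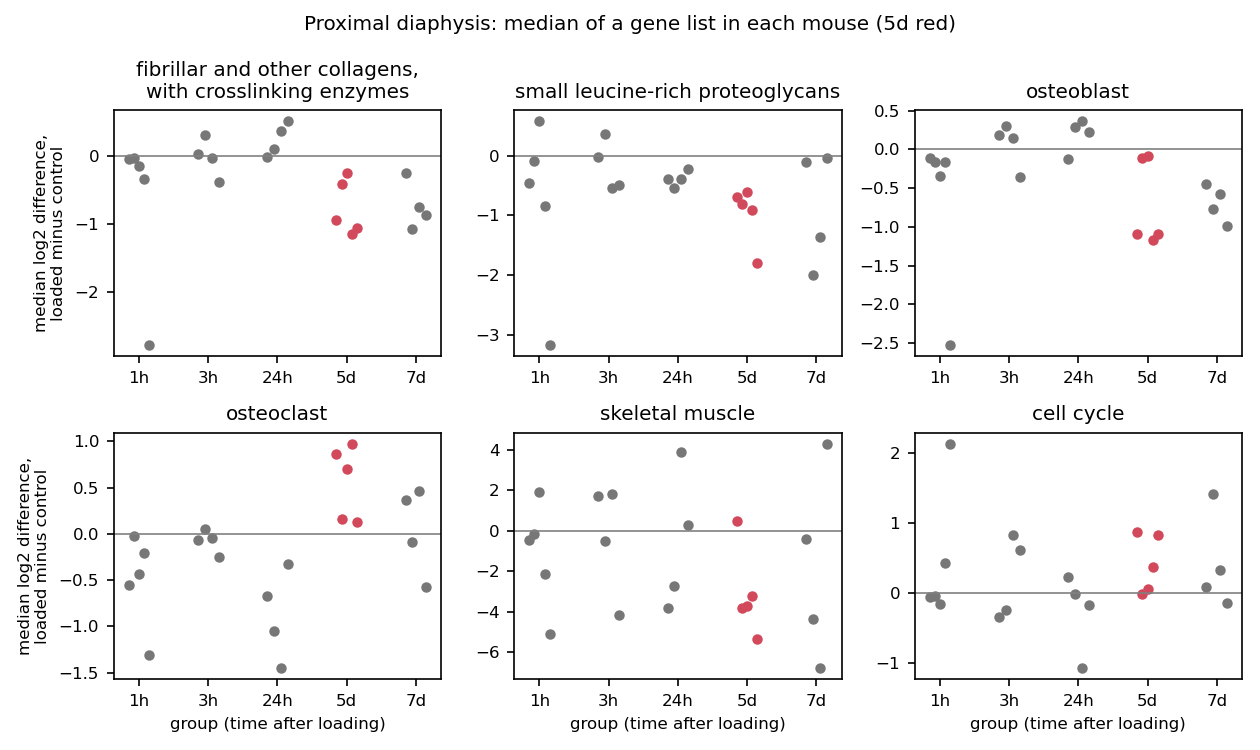
Median log2 difference (y axis, loaded minus control, a separate scale for each panel) of 6 gene lists in each mouse of the proximal diaphysis, by schedule (x axis), with the 5d mice in red and the mice of the other schedules in grey. At 5d the collagen medians lie between -1.16 and -0.25, the osteoclast medians between 0.13 and 0.97, and the muscle medians between -5.33 and 0.49.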

How the data were processed

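The values are the deposited normalized counts, a signal of 3′ reads per gene that the authors scaled between the libraries of all 22 mice. STAR, FastQC, DESeq2 and the mm10 build are named in the submitters' processing notes, and the counting tool and annotation are not given in the sources used here. Division by the value of 1 read gave whole reads (tolerance 0.02) for 100% of the values checked in these libraries. Zeros and the highest read counts were left out of this check.

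Each of the 22 mice of the proximal diaphysis gave a difference of log2(normalized count + 1), loaded minus control, and limma 3.58.1 (R 4.3.3, trended prior, two-sided, Benjamini-Hochberg) fitted 1 mean per schedule, with 17 residual degrees of freedom from this segment alone. Genes had to reach 10 in 5 of the 10 libraries. The fold change of low genes is understated on this scale. Differences between segments were tested on the per-mouse difference of the 2 responses. edgeR 4.0.16 and DESeq2 1.42.0 were run on the recovered reads as alternatives, and the code was tested on simulated data.

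Pairs are limbs of 1 animal, by the animal number in the table's header. The correlation of the deviations of the limbs of a mouse was 0.173, -0.057, -0.136, -0.282 and 0.319 in mice 1 to 5. Between limbs of different mice it ranged from -0.534 to 0.514. These values do not show that the limbs of a mouse are more alike than those of different mice. No 2 libraries were identical. Each mouse is 1 replicate, and counting intervals were not computed because all values have replicates.

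The segment, members and gene lists were chosen with earlier results of these data known. Some lists share members, such as Col1a1 and Col1a2 in the osteoblast and collagen lists, so their medians are not independent. Genes are named where they had the 10 smallest p values per direction with the same sign in 5 of 5 mice and a mean of at least 20, were on a panel of bone genes, were among the 4 smallest p values of a list, or were called in another comparison. Panel genes not mentioned, and numbered gene models, are left out. Others, such as those in DESeq2 calls, were named after their values were seen. Positions are from GENCODE M21 (GRCm38, the assembly of mm10). Symbols of 27 genes appear in the deposited file as dates and were kept as features without a name. The strand rule of the counting is not given, so reads of overlapping or antisense genes, such as those at Ifitm5, cannot be told apart.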

Additional observations from a re-analysis of the deposited data

Results flagged for a closer look

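In 182 groups of 5 limbs examined, 15 held 1 limb that stood far from the other 4 by Dixon's criterion at the 95% level. That level gives about 1 in 20 by chance only for independent values with a normal distribution. The criterion was applied to normalized counts without a log scale, and several of the genes are related. All 15 limbs stood above the other 4, so no rate by chance is given for them. The groups covered the named genes, the reads, the genes detected, the share of Rn45s and the summed muscle level. The sums of the other marker lists were not examined in this way. Among loaded tibiae, mouse 1 stood above the others in muscle genes. Its summed muscle level was 12480.09, against 448 to 2028 in the other 4, with Tnnc2 at 1179.23 (others 22.2 to 89.6), Pvalb at 543.33 (7.40 to 34.5), Myh2 at 130.94 (0 to 19.95) and Myl1 at 109.12 (1.68 to 9.74). Mouse 2 stood above the others in matrix genes, with Tnn at 239.96 (15.9 to 52.9), Bmp1 at 266.39 (124.8 to 138) and Chad at 47.99 (0 to 2.26). In mouse 3 Snx10 was at 382.74 (112.1 to 185), in mouse 4 Mt2 was at 1339.69 (511 to 691) and in mouse 5 Col1a2 was at 44319.62 (14344 to 19746).

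Among control tibiae, mouse 1 had Ifitm5 at 445.20 (others 141 to 214) and biglycan (Bgn) at 11898.09 (2298 to 4370). Mouse 5 had Loxl2 at 911.23 (27.0 to 269) and Col2a1 at 1363.84 (439 to 631).

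The response of the proximal diaphysis differed from that of the metaphyseal shell, by the test of the difference itself, in Crispld2 (-2.03), Col16a1 (-2.34), Cilp2 (-3.81) and Tnn (-3.26), each lower in 5 of 5 mice (limma adjusted p = 0.0433, 0.0433, 0.0433 and 0.0464).

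In 3 further genes every mouse of one group differed in one direction and every mouse of another in the opposite one, but the test of the difference was not passed (limma). Atp6v1c1 differed by 0.68 in the 5d mice and by -0.44 in the 4 mice of 7d (-1.10 to -0.02), with an adjusted p of 0.6195 for the difference. Fignl1 differed by 1.59 in the 5d mice and by -1.86 in the 7d mice (-4.85 to -0.62), with an adjusted p of 0.6195. Clec2d differed by 1.53 in the proximal diaphysis and by -2.33 in the mid-diaphysis of the same 5 mice (-4.49 to -0.05), with an adjusted p of 0.8755. The loaded mid-diaphysis libraries of mice 4 and 5 stood apart in mesothelial-type and marrow markers, and over mice 1 to 3 alone the mid-diaphysis value was -1.47.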

How the results depend on the processing

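The count of 0 genes called in the loaded tibia of the proximal diaphysis became 56 with DESeq2 and 10 with array weights, and ranged from 0 to 3 when 1 of the 5 mice was left out; it was 0 with pseudocounts of 0.5 and 5, no filter, a mean of at least 50, another scaling, the 5 pairs alone, a spread shared by all segments, and edgeR. The 4 genes that differed from the shell became 0 with a pseudocount of 0.5, without a filter on low values and with upper-quartile scaling, 1 with edgeR (chosen after seeing the data), and 0 to 2 with 1 mouse left out; they were 5 with a pseudocount of 5 or a mean of at least 50. Without the pairing of limbs (no replicate block) that count was also 0, and the other comparisons also stayed at 0 without it. The cause of these changes was not tested. Counts at an unadjusted p under 0.05 against the mid-diaphysis were 913 without mouse 2, 283 without mouse 4 and 306 without mouse 5, in place of 488. Of 87 named genes 84 kept their sign in every alternative. Leaving out 1 mouse reversed Runx2 (0.0316 without mouse 4; range -0.72 to 0.03), Mepe (-0.0743 without mouse 5; -0.0743 to 0.16) and Phex (-0.09, -0.15 and -0.13 without mice 2, 3 and 5; -0.15 to 0.47). With 624177 reads in the shallowest of the 10 libraries, Wnt1, Wnt7b, Wnt10b and Tnfsf11 were too low to test.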
